A study of Mus musculus with 4 samples.

Results

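Dux, Obox6, Spz1, Ubtfl1 and Lmx1a are 5 genes for transcription factors, or for proteins of transcription factor families, that were described here in mouse embryonic stem (ES) cells sorted by the activity of the 2-cell-stage gene cluster Zscan4. They were taken by symbol from the RefSeq table of the series, which lists 19797 gene symbols with a read, and each symbol had 1 transcript. The genes were chosen by their counts and FPKM in these libraries, which were high in the Zscan4-positive fraction and low in the other. That contrast is therefore described for them with no test, and it supports nothing further.

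The cells were MC1-ZE7, an ES cell line of strain MC1 (129S6/SvEvTac) with a fluorescent Emerald reporter that marks cells active for Zscan4. The Emerald-positive group (Em+) was the high fraction of the sort, and the Emerald-negative group (Em-) was sorted from the same line. Both groups came from feeder-free culture in 15% FBS with LIF at 1000 U/ml, had no further treatment, and gave 2 libraries each, 4 in all. Total RNA (500 ng) was depleted of ribosomal RNA and made into stranded libraries. The sources used here do not give the promoter that drives Emerald, nor whether the libraries of a group came from separate cultures or sorts. All cells were of 1 line, and a p-value reflects the spread between the libraries alone, which may be technical.

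In the mouse embryo, transcription of the embryonic genome begins in earnest around the 2-cell stage, when a short burst of genes and of endogenous retroviral elements is switched on and soon silenced again. A small and changing share of cultured ES cells passes through a state in which part of this burst is replayed, with Zscan4 as one of its usual markers. Dux is a homeobox factor encoded in a tandem repeat array, the mouse counterpart of human DUX4, and it can switch on many genes of the burst, including Zscan4. Obox6 belongs to the oocyte-specific homeobox family. Spz1 encodes a basic helix-loop-helix leucine zipper protein known from the testis. Ubtfl1 encodes an HMG box protein related to the ribosomal RNA gene factor UBF and is known from preimplantation embryos. Lmx1a encodes a LIM homeodomain factor best known from the roof plate and from midbrain dopaminergic neurons.

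The RefSeq counts per library ran from 16468218 to 18953217. Rn45s, a ribosomal RNA precursor model, took 7.95% of the counts of Em+ replicate 2 and 3.93 to 4.33% of those of the other libraries, and its part in any result was not tested. The 6 Zscan4 genes summed to 212 and 224 TMM-scaled CPM (counts scaled for library size) in Em+ replicates 1 and 2 and to 1.81 and 2.27 CPM in Em- replicates 1 and 2. This order followed the sample titles, although the description field of each sample names the opposite fraction. Pluripotent cell markers, with 1 of 8 tested genes called higher, summed to between 5092 and 5852 CPM in the 4 libraries. Of 8 fibroblast and feeder markers 4 had no read in any library (Col3a1, Dcn, Lum and Postn), and the list, with 1 of 2 tested genes called higher, summed to 41.9 to 43.9 CPM in Em+ and 30.4 to 31.3 CPM in Em- cells. Male germ cell markers, with 1 of 3 tested genes called higher, summed to 55.2 and 57.7 CPM in Em+ and to 45.5 to 45.9 CPM in Em- cells. Primitive endoderm markers, with none of 1 tested gene called, summed to 22.3 to 22.4 CPM in Em+ and 20.2 to 20.4 CPM in Em- cells. Neural progenitor markers, again with none of 1 called, summed to 27.6 to 30.3 CPM in Em+ and 27.7 to 29.0 CPM in Em- cells. The part of these small differences in the results was not tested. Calls were made by edgeR (Benjamini-Hochberg adjusted p under 0.05), which called 3.82% of the 12050 tested genes higher and 0.822% lower. Marker lists with 1 to 8 tested genes are too small to compare with these shares.

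The stretches just upstream of 4 of the 5 genes are shown because these genes had their reads together in the Em+ libraries. Each line is the 250 bases before the transcription start in RefSeq on build GRCm38.p6, 5′ to 3′ on the strand of the gene. This start is that of the deposited model for Spz1, Ubtfl1 and Lmx1a, while for Dux it lies 414 bases upstream of the start of the deposited model. The windows are chr10:58233090-58233339 on the minus strand for Dux (RefSeq symbol Duxf3), chr13:92576233-92576482 on the minus strand for Spz1, chr9:18404168-18404417 on the plus strand for Ubtfl1 and chr1:167689308-167689557 on the plus strand for Lmx1a. Obox6 had no matching entry. Capitals mark TGATTGAATC in the Dux window, a tandem run of TGTGG in the Spz1 window and, in the Ubtfl1 window, a run that recurs near a start of the neighbouring gene Naalad2.
Dux: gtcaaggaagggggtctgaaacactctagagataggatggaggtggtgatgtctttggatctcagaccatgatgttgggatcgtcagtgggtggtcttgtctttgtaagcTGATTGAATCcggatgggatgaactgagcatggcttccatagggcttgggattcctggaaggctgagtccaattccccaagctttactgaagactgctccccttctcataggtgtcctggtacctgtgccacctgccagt
Spz1: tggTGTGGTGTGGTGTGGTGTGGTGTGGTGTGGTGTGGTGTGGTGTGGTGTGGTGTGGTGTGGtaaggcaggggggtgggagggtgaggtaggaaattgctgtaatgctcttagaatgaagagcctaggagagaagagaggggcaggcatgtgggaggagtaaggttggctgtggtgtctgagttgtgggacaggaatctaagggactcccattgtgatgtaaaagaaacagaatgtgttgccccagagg
Ubtfl1: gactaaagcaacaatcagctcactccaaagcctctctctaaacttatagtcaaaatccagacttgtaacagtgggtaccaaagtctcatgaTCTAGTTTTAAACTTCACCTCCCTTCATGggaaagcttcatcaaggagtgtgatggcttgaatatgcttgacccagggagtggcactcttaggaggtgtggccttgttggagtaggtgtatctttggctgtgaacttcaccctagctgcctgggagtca
Lmx1a: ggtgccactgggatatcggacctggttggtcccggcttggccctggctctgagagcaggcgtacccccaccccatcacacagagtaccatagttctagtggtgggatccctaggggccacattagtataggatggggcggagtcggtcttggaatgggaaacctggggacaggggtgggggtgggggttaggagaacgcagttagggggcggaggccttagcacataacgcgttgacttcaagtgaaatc

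The windows were searched on both strands for 4 short motifs. The letters GGATTA, the core of Otx-type homeodomain sites, occurred in 6.25% of the 32851 windows in the RefSeq set and in none of these 4. The letters TAATTA, a core of many other homeodomain sites, occurred in 4.84% of all windows and in none of the 4. The TATA box letters TATAAA occurred in 12.4% of all windows and in none of the 4. The core of the motif bound by Dux was spelled as TGATTGAATC with a final A added and any base allowed at position 6. This spelling occurred in 0.0304% of all windows and in none of the 4. The form without the final A, which the longer one contains, was added after the letters had been seen. It occurred in the Dux window, beginning 140 bases before the RefSeq start, and in 32 of the 32851 windows (0.0974%). The Spz1 window opened with 12 TGTGG units over 60 bases and was the only 1 of the 32851 windows with at least 6 such units in tandem, on either strand. This unit was not among the 4 motifs and was taken from the Spz1 window itself. A match there was thus fixed in advance, and the count is a description. The Lmx1a window had 59.2% GC and 9 CpG, the Dux window 51.2% and 2, the Spz1 window 53.6% and 0, and the Ubtfl1 window 46.0% and 0. The median over all windows was 52.4% GC and 6 CpG, so Lmx1a alone of the 4 lay above the median number of CpG. A match or its absence describes these letters and says nothing of a factor's binding.

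All 5 genes had both Em+ libraries above both Em- libraries. Of all 19797 symbols, 36.2% had that order. The plot of levels by library shows a gap for each gene that is wider than the distance between its replicates, and it is narrowest for Obox6.

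**Figure D1:**
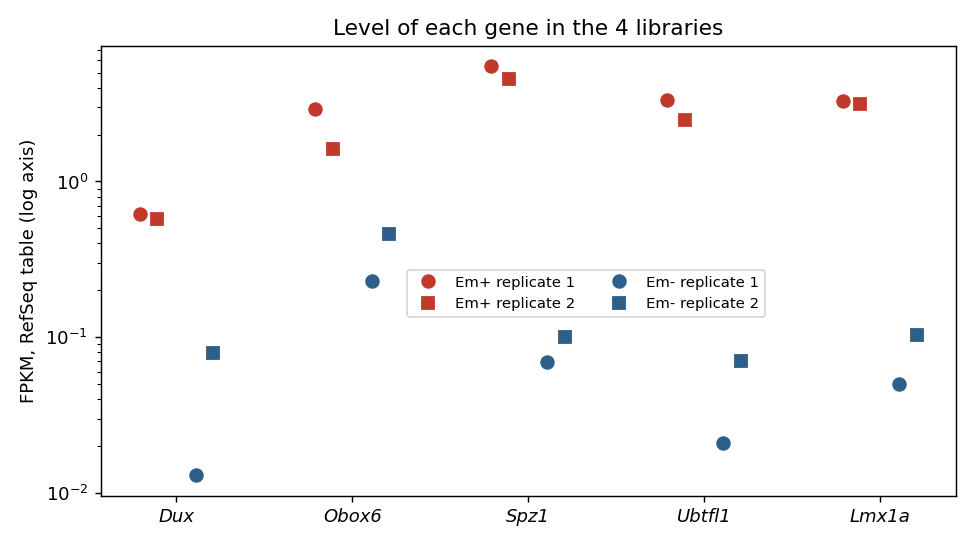
Level of each gene in each of the 4 libraries as deposited FPKM of the RefSeq table (log axis); colours are the sorted fractions and symbol shapes the replicates. Em+ points lie between 0.573 (Dux) and 5.48 (Spz1) and Em- points between 0.013 (Dux) and 0.46 (Obox6).

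Dux (chromosome 10, 58230651 to 58232675, minus strand, a model of 1 exon and 2025 bases) had the lowest level of the 5 in Em+ cells. It had 46 and 44 reads in Em+ replicates 1 and 2 and 1 and 6 reads in Em- replicates 1 and 2, or 0.621, 0.573, 0.013 and 0.079 FPKM. Both Em+ libraries were high and alike, and both Em- libraries were near the limit of counting. Its level was 2.67 ± 0.152 CPM for Em+ and 0.186 ± 0.185 CPM for Em- (mean and SD, n = 2 each). The summed reads gave a 14.2-fold ratio with an exact 95% binomial interval of 6.59 to 36.2. This interval, like the others here, covers counting error alone and not the spread between libraries. The reads carry no molecular identifiers and may repeat a molecule, so the interval may be too narrow even for counting error. The ratio of means was 8.45-fold without Em- replicate 1 and 48.61-fold without Em- replicate 2. With a mean of 0.322 FPKM, Dux was the 1 gene of the 5 below the minimum of 1 FPKM set for tested genes.

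Much of the Dux sequence is not unique to it. Of the 50-base stretches of its annotated transcripts, 58.9% recurred in transcripts of other genes, chiefly AW822073 (48.6%), Gm10807 (34.7%) and Gm19459 (6.02%), models of the same array. The sources used here do not say how reads with several matches were counted, so the value may stand for several copies. In the Ensembl table the array models AW822073, Gm10807 and Gm19459 had 1 to 9 reads per transcript in each Em+ library and 0 in both Em- libraries. The other Dux-like gene in the RefSeq table, Gm4981, shared 0.0506% of these stretches and had 11, 4, 1 and 0 reads in Em+ replicates 1 and 2 and Em- replicates 1 and 2.

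Obox6 (chromosome 7, 15833250 to 15839679, minus strand, 3 exons, 1336 bases) kept the largest share of its level in Em- cells. It had 143 and 82 reads in Em+ and 11 and 23 reads in Em- replicates 1 and 2, or 2.93, 1.62, 0.229 and 0.46 FPKM. The groups did not overlap, but replicates differed in both. Its level was 6.58 ± 1.97 CPM for Em+ and 0.908 ± 0.430 CPM for Em- (mean and SD, n = 2 each), a 7.28-fold ratio of summed reads (95% interval 5.06 to 10.8). Obox6 was 1.54-fold higher in Em+ replicate 1 than in Em+ replicate 2 (95% interval 1.16 to 2.04). Of the 4527 genes with 200 to 1000 Em+ reads, 3.05% differed as much between these libraries. Obox6 had 225 Em+ reads, near the low end of that range, where counting error is larger. The share at like counts may thus be higher. None of the other 4 genes had an interval for the Em+ replicate ratio that left out equality. Their ratios were 0.922 for Dux, 1.02 for Spz1, 1.14 for Ubtfl1 and 0.900 for Lmx1a. Of the 50-base stretches of Obox6, 5.02% recurred in Obox6-ps1.

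Spz1 (chromosome 13, 92574632 to 92576232, minus strand, 1 exon, 1601 bases) had the highest Em+ level per length in the RefSeq table. It had 321 and 277 reads in Em+ and 4 and 6 reads in Em- replicates 1 and 2, or 5.48, 4.56, 0.069 and 0.1 FPKM. The Em+ libraries lay close together on the CPM scale and the Em- libraries held a handful of reads each. Its level was 17.7 ± 0.279 CPM for Em+ and 0.268 ± 0.0681 CPM for Em- (mean and SD, n = 2 each), a 65.8-fold ratio of summed reads (95% interval 35.5 to 138). No 50-base stretch of Spz1 recurred in a transcript of another gene.

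Ubtfl1 (chromosome 9, 18404418 to 18411502, plus strand, 3 exons, 2639 bases) had 322 and 249 reads in Em+ and 2 and 7 reads in Em- replicates 1 and 2, or 3.34, 2.49, 0.021 and 0.07 FPKM. Em+ replicate 1 was the higher of the Em+ libraries and Em- replicate 2 the higher of the Em- libraries, with a wide gap between the groups. Its level was 16.8 ± 1.57 CPM for Em+ and 0.239 ± 0.183 CPM for Em- (mean and SD, n = 2 each), a 69.8-fold ratio of summed reads (95% interval 36.5 to 153). The ratio of means was 45.65-fold without Em- replicate 1 and 153.2-fold without Em- replicate 2. Of its 50-base stretches 4.90% recurred in other transcripts, of Naalad2, Gm19174 and Gm19170.

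The other tables assign most Ubtfl1 reads to short models that cover its coding part. How reads shared by overlapping models were divided is not given, so the split does not locate the reads. Among Gcc2 models of the known-gene table, one of 6584 bases had 1063 reads in Em+ replicate 1 and one of 6511 bases had 8. The known-gene table splits the gene into the 2639-base model, with 43 and 33 reads in Em+ replicates 1 and 2, and a coding model of 1185 bases, with 252 and 190. The shorter model thus held 85.3% of the Em+ reads of the gene in that table. In the Ensembl table a single-exon model of 1649 bases (18409094 to 18410742) had 299 and 227 Em+ reads, or 95.5%, and a spliced model of 2578 bases had 14 and 11. A level per length depends on the model: the 1649-base model stood at 4.96 and 3.63 FPKM in Em+ replicates 1 and 2, above the RefSeq values. Summed over its models in the known-gene table, Ubtfl1 stood at 6.26 and 4.56 FPKM, against 5.48 and 4.56 for Spz1 there. Counts of the other 4 genes were identical in every table where they could be matched. Dux was matched by position to 1 model in the Ensembl table and was not matched in the ENCODE table. That match left out an overlapping Ensembl model under the same symbol (58229979 to 58232013). This model had 15 and 10 reads in Em+ and 1 and 0 in Em- replicates 1 and 2.

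**Figure D2:**
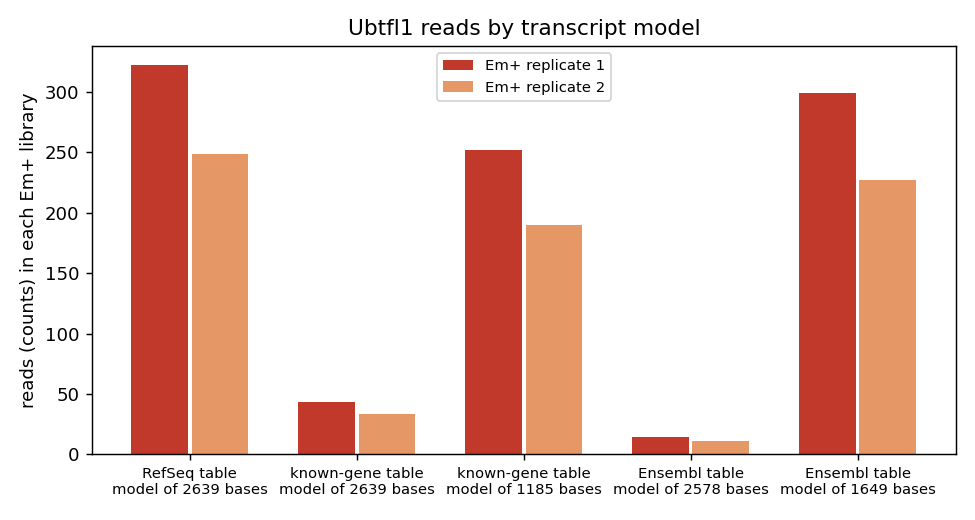
Ubtfl1 reads of both Em+ libraries (bars, counts from 0) assigned to each transcript model in 3 of the deposited tables. The short models that cover the coding part were assigned most reads: 299 and 227 for the 1649-base model against 14 and 11 for the 2578-base model. How reads shared by overlapping models were divided is not given.

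Lmx1a (chromosome 1, 167689558 to 167848733, plus strand, 8 exons, 3338 bases) had the most reads of the 5. It had 404 and 396 reads in Em+ and 6 and 13 reads in Em- replicates 1 and 2, or 3.31, 3.13, 0.05 and 0.104 FPKM. The Em+ libraries were alike and far above both Em- libraries. Its level was 23.8 ± 1.77 CPM for Em+ and 0.507 ± 0.251 CPM for Em- (mean and SD, n = 2 each), a 46.3-fold ratio of summed reads (95% interval 29.5 to 77.4). The ratio of means was 34.69-fold without Em- replicate 1 and 72.06-fold without Em- replicate 2. Of its 50-base stretches 0.0606% recurred elsewhere.

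On the per-length FPKM scale of the RefSeq models the order of levels in Em+ cells was Spz1, Lmx1a, Ubtfl1, Obox6 and Dux. Lmx1a and Ubtfl1 overlapped in their replicate values, as did Ubtfl1 and Obox6. With these models Spz1 lay above the other 4 and Dux below them in both libraries, but Spz1 did not lie above Ubtfl1 in both with the known-gene models. In Em- cells Obox6 lay above the other 4 in both libraries, and these 4 overlapped between 0.013 and 0.104 FPKM. In all 5 genes Em- replicate 2 held more reads than Em- replicate 1, from 1.44-fold for Spz1 to 5.75-fold for Dux on the CPM scale, and every interval for this ratio included equality. The log2 ratios of mean CPM were 3.85 for Dux, 2.86 for Obox6, 6.04 for Spz1, 6.14 for Ubtfl1 and 5.55 for Lmx1a. Between 39 and 66 of the 12050 tested genes had a larger fitted log2 fold change than these. The measures differ, since a fitted value can lie below the ratio of means (Gm2016 had 9.06 fitted and 9.23 as a ratio). The 5 genes may thus rank too high, and Dux was not itself a tested gene.

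The level left in Em- cells is given for the 5 genes as a description with no test. Summed reads put it at 1.52% of the Em+ level for Spz1 (95% interval 0.725 to 2.81), 1.43% for Ubtfl1 (0.651 to 2.74) and 2.16% for Lmx1a (1.29 to 3.39). For Dux it was 7.07% (2.76 to 15.2) and for Obox6 13.7% (9.28 to 19.8), and Em- replicate 2 held 6 of the 7 Em- reads of Dux. The 6 Zscan4 genes together stood at 0.939% (0.739 to 1.18), a value that the sort itself acts on. In bulk libraries, fewer cells with a transcript and less transcript per cell cannot be told apart. The intervals cover counting error and not the spread between libraries.

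**Figure D3:**
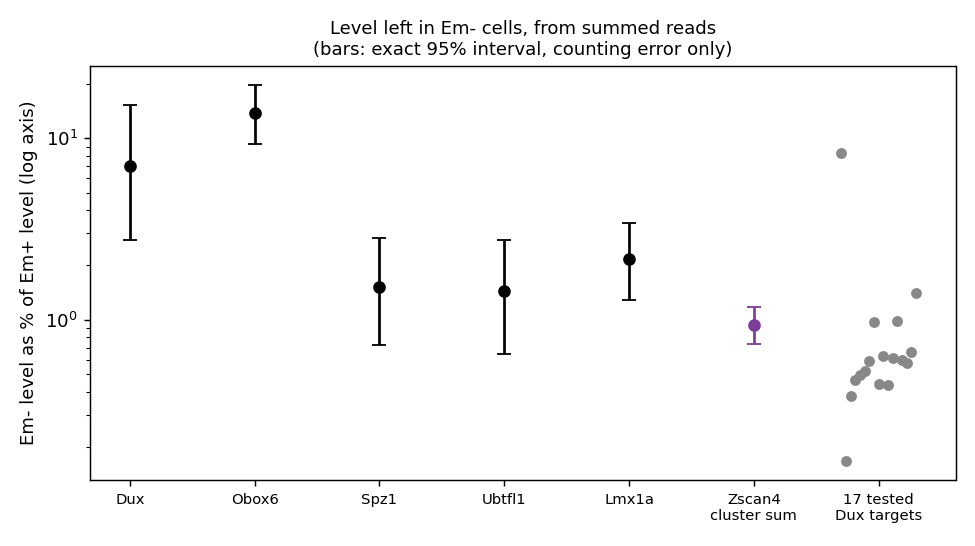
Level in Em- cells as a percentage of the level in Em+ cells (log axis) from summed reads of 2 libraries per group; bars are exact 95% binomial intervals for counting error, and grey points are the 17 tested genes of a list of Dux targets. Obox6 at 13.7% and Dux at 7.07% lie above Spz1, Ubtfl1 and Lmx1a at 1.43 to 2.16%.

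Genes of most similar pattern were taken as those whose share of CPM in each of the 4 libraries differed least from the gene's own, among symbols with at least as many reads. For Spz1 these were Zscan4d, Pramef25 and Gm4971, whose shares differed by at most 0.463, 0.896 and 0.939 percentage points. For Lmx1a they were Trim75 (0.468 points), Zscan4a (1.17 points) and Tmem92 (1.23 points). For Ubtfl1 they were BC147527 (1.94 points), Gm13119 (2.06 points) and Gm2016 (2.20 points), and Zscan4d, Zscan4a, Pramef25 and Gm2016 stand in the list of Dux targets below. Dux had Csmd1 (1.72 points), Spesp1 (2.43 points) and Tmem119 (2.80 points). Obox6 was the least like any other gene, with Hdc (7.26 points), Arl4d (7.94 points) and AU015228 (8.12 points) nearest. The described genes were chosen as high in Em+ and low in Em- cells, so genes of similar pattern share that contrast. The listed Dux targets had this contrast too. The overlap with that list was thus favoured by the choice and says nothing of a link to Dux. These similar patterns are descriptions over 4 libraries that share their depth and scaling.

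Genes known as targets of Dux had almost all of their reads in Em+ cells. Of 25 listed targets 23 had a read, and together they stood in Em- cells at 0.852% of their Em+ level (95% interval 0.748 to 0.967). All 17 that passed the FPKM filter were called higher in Em+ cells (Benjamini-Hochberg adjusted p under 0.05, quasi-likelihood test of edgeR), against 3.82% of the 12050 tested genes higher and 0.822% lower. Most of them could pass the filter only through their Em+ level, and the cells were sorted on Zscan4 activity, so this count is a description. Without the Zscan4 genes it was 14 of 14. Gm2016 had the largest log2 fold change at 9.06 (601 and 496 reads in Em+, 1 and 1 in Em- cells), followed by Usp17lc at 7.79, Gm4027 at 7.70 and Usp17la at 7.65. The median log2 fold change of the 17 was 7.36, against 0.00 over all tested genes. Arg2, an arginase gene, was the least changed at 3.59, with 352 and 338 reads in Em+ and 31 and 32 in Em- cells. Several of these genes, the Usp17l and Zscan4 genes among them, are near-identical copies whose single values are uncertain.

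Among factors that act upstream or as parts of the 2-cell program, 6 of 9 tested genes of 12 listed were called higher in Em+ cells and none lower (median log2 fold change 1.08), against 3.82% and 0.822% of all tested genes. The sort was on Zscan4 activity, which fixed the direction of 3 of these calls. Without the Zscan4 genes 3 of 6 were called higher, with a median of 0.44. Beside Zscan4a (7.42), Zscan4c (7.20) and Zscan4d (6.14) these included Nelfa, which encodes a subunit of the NELF complex of transcript elongation and has been tied to Dux activation. Nelfa had 3020 and 2885 reads in Em+ and 577 and 661 in Em- cells, which put its log2 fold change at 2.40 with an SE of 0.08 (edgeR adjusted p = 3.76e-06). Dppa2, which is known to activate Dux, had 731 and 632 reads in Em+ and 358 and 353 in Em- cells, which put it at 1.08 on the log2 scale with an SE of 0.08 (edgeR adjusted p = 2.52e-04). Its partner Dppa4 was not called, with a log2 fold change of 0.16 (edgeR adjusted p = 0.297). The change of Dppa4 took the opposite sign with limma, which was run on deposited FPKM with no TMM scaling. Tbx3 was called at 0.65 (edgeR adjusted p = 0.00855). With limma on log2(FPKM + 1) 5 of the 9 were called, without Tbx3. Nr5a2, an orphan nuclear receptor, had -0.18 (edgeR adjusted p = 0.175).

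None of the 11 tested genes known to repress Dux was called in either direction by edgeR with all 4 libraries, and neither DESeq2 nor limma called any, while 2 had a p under 0.05 before adjustment. With 3.82% of all tested genes called higher and 0.822% lower, a count of 0 among 11 is near the background. Other edgeR fits called some: Zmym2 with the replicate number as a block, 5 genes without Em+ replicate 1 and 3 without Em+ replicate 2, among them Chaf1b and Zmym2 in both. Those last fits called 2642 and 1136 of all tested genes higher and 2350 and 832 lower. The median of the 11 log2 fold changes was 0.06, with a range from -0.24 for Chaf1b, a chromatin assembly factor subunit, to 0.29 for Zmym2, a zinc finger protein of repressor complexes. The edgeR adjusted p was 0.101 for Chaf1b and 0.0943 for Zmym2. Pias4, a SUMO ligase, had -0.16 and Setdb1, a histone methyltransferase, 0.15. Proteins were not measured.

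Most close relatives of the 5 genes, and most of their usual partner genes, had few reads or were not called. Obox3 and Obox5, the other Obox genes in the RefSeq table, had 3 and 5 reads over all libraries, too few to compare. None of the 11 other LIM homeobox genes passed the filter, and with no FPKM filter edgeR called none of them, with 2 at an unadjusted p under 0.05. In that fit 4.48% of all 19797 symbols were called higher and 1.47% lower, so a count of 0 among 11 is near the background. Lmx1b, the closest relative of Lmx1a, had 6 and 10 reads in Em+ and 9 and 11 in Em- cells, beside the 404 and 396 Em+ reads of Lmx1a. Of 12 midbrain dopaminergic genes with reads, Th had 1 to 3 reads in every library and Pitx3 had 13 and 4 in Em+ and 5 and 4 in Em- cells. Foxa1, a forkhead factor of endoderm and floor plate, was the one called higher with no FPKM filter (Otx2, given below, was called lower). Foxa1 had 26 and 29 reads in Em+ and 5 and 7 in Em- cells (log2 change 2.25 at an edgeR adjusted p of 0.0103). These calls, 1 higher and 1 lower among 12 genes, stand beside the shares of all symbols given above.

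The same held for the relatives of Spz1 and Ubtfl1. The germline helix-loop-helix genes Sohlh2 (log2 fold change 0.16) and Tcfl5 (0.03) were tested and not called by edgeR, DESeq2 or limma, and 0 of these 2 had an unadjusted p under 0.05. Both log2 fold changes took the opposite sign with limma on deposited FPKM, which had no TMM scaling. Ubtf, the gene of UBF itself, had 4442 and 3471 reads in Em+ and 4644 and 4834 in Em- cells, a log2 fold change of -0.13 (edgeR adjusted p = 0.328). None of the 10 tested genes of RNA polymerase I initiation was called by edgeR, DESeq2 or limma, with 3 at an unadjusted p under 0.05 and log2 fold changes from -0.13 to 0.23 (Polr1b 0.23, Taf1a 0.23, Taf1c 0.21, Polr1a 0.21). The HMG box list held 7 tested genes, although Tcf3 is by that symbol the basic helix-loop-helix gene E2A and no HMG box gene. Of these 7 edgeR called none and limma none, DESeq2 called Sox2, and 4 had an unadjusted p under 0.05. By edgeR 3.82% of all tested genes were called higher and 0.822% lower. Counts of 0 among 2, 10 and 7 genes are near that background. The log2 fold changes were -0.29 for Sox2, -0.20 for Sox15, -0.18 for Tcf3 and 0.46 for Hmgb3.

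The list set up for homeobox genes of the Crx and Otx class also took in other homeobox genes, Nobox among them. It held 9 genes with reads, of which 2 were tested. Nobox, a homeobox factor of oocytes, had 35 and 20 reads in Em+ and 2 and 1 in Em- cells. It was below the FPKM filter, and with no filter its log2 fold change was 4.16 (edgeR adjusted p = 0.00286, and 0.00468 at most with any 1 library left out). Of the 9 genes, 1 (Nobox) was called higher in that fit and 1 (Otx2) lower. Of all 19797 symbols in that fit, 4.48% were called higher and 1.47% lower. Otx2, a factor of the epiblast and brain, had 932 and 704 reads in Em+ and 1130 and 1232 in Em- cells, a log2 fold change of -0.40 (edgeR adjusted p = 0.0596). It was called lower by DESeq2 (adjusted p = 0.039), by edgeR with no FPKM filter (-0.45, adjusted p = 0.0356), with a mean FPKM of at least 0.1 (adjusted p = 0.038) and with the replicate block (adjusted p = 0.00683), and not by limma. Crxos, a homeobox gene at the Crx locus, had a log2 fold change of 0.45 (edgeR adjusted p = 0.169).

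**Figure D4:**
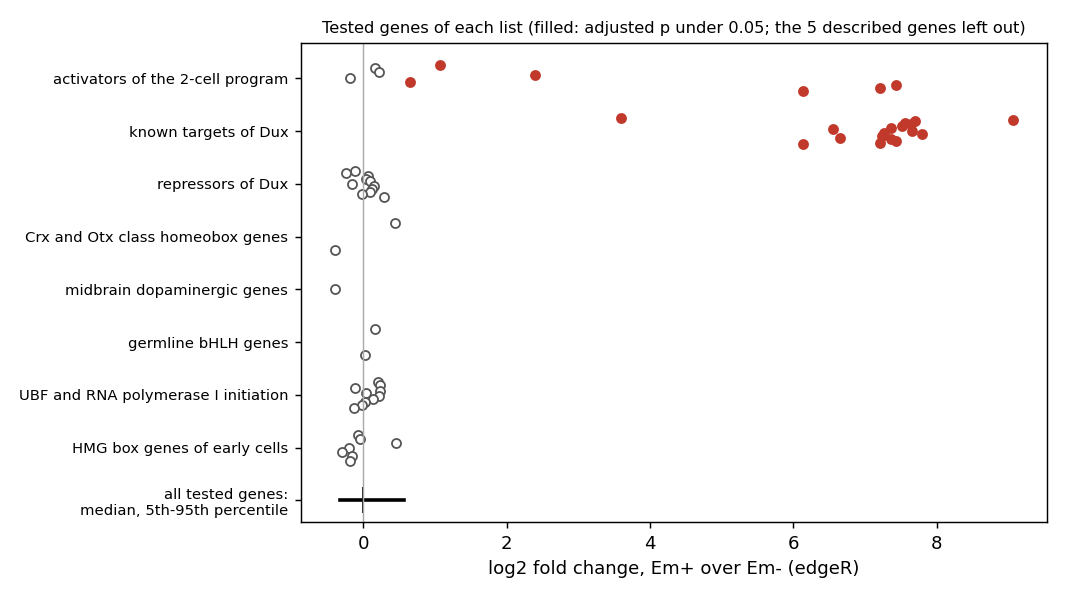
Log2 fold change (Em+ over Em-, edgeR) of every tested gene of each list, the 5 described genes left out; filled points have an adjusted p under 0.05 and the bar at the bottom spans the 5th to 95th percentile of all 12050 tested genes around their median of 0.00. Targets of Dux lie between 3.59 and 9.06, and repressors of Dux between -0.24 and 0.29.

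The genes beside the 5 on their chromosomes had no part in how the 5 were picked. The 2 nearest symbols of the RefSeq table on each side gave 20 neighbours. None of the 8 tested ones was called by edgeR with all 4 libraries and no block, by DESeq2 or by limma, and 2 had an unadjusted p under 0.05, where 3.82% of all tested genes were called higher and 0.822% lower. Zfyve16 was called with the replicate block, Gcc2, Mgst3, Serinc5 and Zfyve16 without Em+ replicate 1, and Chordc1 and Zfyve16 without Em+ replicate 2. Their log2 fold changes ran from -0.28 for Mgst3, 295.8 kb from Lmx1a, to 0.45 for Crxos, 56.4 kb from Obox6. Zfyve16, 43.8 kb from Spz1, stood at 0.31 (edgeR adjusted p = 0.0556) and Serinc5, 34.9 kb on its other side, at 0.11. Gcc2, 22.9 kb from Dux, stood at 0.16, and Zfp558 and Chordc1 near Ubtfl1 at -0.05 and 0.14. Serinc5, Gcc2, Chordc1 and Zfp558 took the opposite sign under other settings.

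With no FPKM filter 2 of the 20 neighbours were called higher in Em+ cells, against 4.48% of all symbols in that fit. Of the 50-base stretches of Ubtfl1, 4.90% recurred in Naalad2, and how reads with several matches were counted is not given. The part of this in the Naalad2 counts was not tested. Naalad2, a peptidase gene, lies 18.5 kb from Ubtfl1 by its RefSeq model, and Ensembl models of it reach 18402995. It had 93 and 133 reads in Em+ and 18 and 26 in Em- replicates 1 and 2. All of its Em+ values lay above its Em- values, with a 5.65-fold ratio of summed reads (95% interval 4.08 to 7.997) and a log2 fold change of 2.44 (edgeR adjusted p = 8.66e-04). Rxrg, a retinoid X receptor gene 49.9 kb from Lmx1a, had 22 and 16 reads in Em+ and 3 and 1 in Em- cells, a log2 fold change of 3.24 (edgeR adjusted p = 0.0119). It moved to 4.19 without Em- replicate 1 and to 2.66 without Em- replicate 2. Both calls held with any 1 library left out, with an adjusted p of at most 0.00314 for Naalad2 and 0.0188 for Rxrg. Crx, 26.3 kb from Obox6, had 11 and 5 reads in Em+ and 1 and 0 in Em- cells and was not called (edgeR adjusted p = 0.0668), nor was Gm4981, 2.17 kb from Dux (edgeR adjusted p = 0.0835).

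Naalad2 and Ubtfl1 lie head to head on opposite strands. The capitals in the Ubtfl1 window, 29 bases at chr9:18404259-18404287, begin 159 bases before its start and recur in the opposite orientation in a RefSeq window of Naalad2 at chr9:18397489-18397788. That window spans 250 bases before to 50 bases after one of the Naalad2 starts, with the run in the last 50, and it lies within the span of Naalad2 models that begin closer to Ubtfl1. The run was picked as the longest stretch that the Ubtfl1 window shares with a Naalad2 window. Its presence in these 2 genes was thus fixed in advance. Stretches of 20 bases from this run were found in windows of 2 gene symbols, Ubtfl1 and Naalad2, among 32851 windows. In the Ensembl table a short Naalad2 transcript at its 5′ end (18388180 to 18402976, 441 bases) had 42 and 53 reads in Em+ and 1 and 0 in Em- cells. This transcript lies at the end of the gene that faces Ubtfl1. Gm5612, on the other side of Ubtfl1 (18427543 to 18428806), had 15 and 13 reads in Em+ and 1 and 0 in Em- cells.

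The Ensembl table also holds Gm7235 beside Obox6, on chromosome 7 from 15819879 to 15825705. It had 62 and 68 reads in Em+ replicates 1 and 2 and 0 in both Em- libraries. Its Em+ libraries were thus alike, where those of Obox6 were 143 and 82. The transcript was singled out after its values had been seen, and it was not tested.

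**Figure D5:**
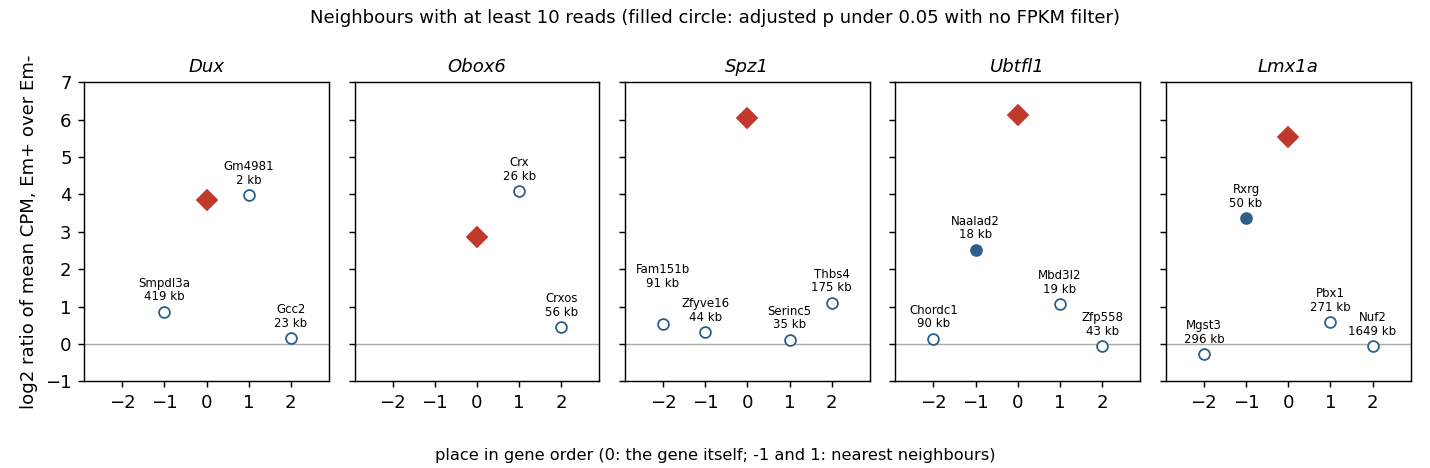
Log2 ratio of mean CPM (Em+ over Em-) of each of the 5 genes (diamonds) and of neighbours (circles). Shown are those of the nearest 2 neighbours on each side that had at least 10 reads, with the distance in kb between RefSeq models. Filled circles were called with no FPKM filter. Naalad2 (18.5 kb from Ubtfl1) and Rxrg (49.9 kb from Lmx1a) are the filled circles; Crx (4.08) and Gm4981 (3.98) rest on few reads and were not called.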

How the data were processed

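RNA-seq of 2 Em+ and 2 Em- libraries was used, with groups and replicate numbers from the sample titles; the table columns lettered H and N were read as Em+ (the high fraction) and Em-. Per the file headers, the authors deposited raw counts and FPKM per transcript in 4 tables (RefSeq, known-gene, ENCODE, Ensembl). The submitters' processing notes name Bowtie2 and build mm10; the sources used here do not give the counting program, annotation releases, use of strand or handling of reads with several matches. The RefSeq and Ensembl counts of Em- replicate 1 are all 0, so they were computed from its FPKM, which was truncated to 3 decimals. The same calculation returned the deposited counts for 99.95 to 99.96% of 24538 transcripts in the other libraries, and 99.57% of 12802 computed counts of Em- replicate 1 equalled its known-gene counts.

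Counts were summed per symbol, and the 12050 symbols with a mean FPKM of at least 1, which held 98.61 to 98.99% of the counts, were tested with edgeR 4.0.16 in R 4.3.3 (quasi-likelihood, TMM, two-sided, Benjamini-Hochberg threshold 0.05); the script was tested on simulated data. CPM used the same scaling. DESeq2 1.42.0 and limma 3.58.1 were alternatives, and the limma fits used deposited FPKM with no TMM scaling. The genes, lists and rules were chosen with earlier results of these data known. Named were the 5 genes, the 4 tested genes of each list with the largest absolute log2 fold change, the 2 nearest symbols on each side, the 3 symbols of most similar pattern, and a few chosen after their values were seen (Dppa2, Dppa4, Tbx3, Nr5a2, Arg2, Ubtf, Nobox, Foxa1, Lmx1b, Th, Pitx3, Gm7235, Gm5612 and models of the Dux array). Exons, strands and shared 50-base stretches came from Gencode on GRCm38.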

Additional observations from a re-analysis of the deposited data

How the results depend on the processing

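The ratios of the 5 genes kept their direction in every alternative run (10 for Dux, 11 for each other gene). With 1 library left out the log2 ratios ran from 3.08 to 5.60 for Dux, 2.44 to 3.44 for Obox6, 5.81 to 6.33 for Spz1, 5.51 to 7.26 for Ubtfl1 and 5.12 to 6.17 for Lmx1a, and few Em- reads limit them. Counts over all genes moved more, against 460 higher and 99 lower, and the cause was not tested. Higher and lower genes numbered 157 and 25 with limma on log2(FPKM + 1), 195 and 37 with limma on log2(FPKM + 0.1), 887 and 291 with no FPKM filter, and 847 and 262 with a mean FPKM of at least 0.1. DESeq2 called 151 lower. The limma fits used FPKM with no TMM scaling, and the part of this in their changes of sign was not tested. With 1 library left out, higher genes ranged from 457 to 2642 and lower genes from 33 to 2350; the lone library of a group was then assumed to vary like the others. The labels do not say that replicate numbers pair the samples, and same-numbered deviations correlated at 0.024 over genes; with the replicate number as a block 1090 genes were higher and 462 lower. The alternatives were also run for 37 other named tested genes, without symbols named only for a similar pattern. Of these 37 genes 11 were called, and 1 of the 11, Tbx3, lost its call (0.46 and 0.48 with limma at pseudocounts of 1 and 0.1). Of those not called, 19 were called in at least 1 alternative, mostly without an Em+ library. Small changes took the opposite sign for Chordc1 (-0.021 and -0.022), Serinc5 (-0.042 and -0.049), Dppa4 (-0.0063 and -0.0071), Setdb1 (-0.015 and -0.016), Sohlh2 (-0.0092 and -0.010) and Tcfl5 (-0.12 and -0.14) with limma at pseudocounts of 1 and 0.1. The same happened for Gcc2 (-0.0003, limma at 0.1), Zfp558 (-0.21 to 0.12 with 1 library left out) and Tcfl5 (-0.031 with no filter, -0.010 at a mean FPKM of 0.1, -0.013 to 0.064 with 1 library left out). Leaving out a library in the fit with no filter was chosen after seeing the data; Naalad2, Rxrg, Nobox and Foxa1 kept their calls in all 4 fits, while Crx was called in 2 and Gm4981 in 1.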
